A study of Mus musculus with 16 samples.

Results

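Ventricles of neonatal mice that lacked Chrna7 were compared with those of wild-type mice after sham surgery, the operation without an infarct. The comparison used 8 of the 16 samples of the series, chosen by their genotype and treatment labels: 4 knockout libraries (KO sham) and 4 wild-type libraries (WT sham). Every mouse in it had been operated on, and there is no unoperated group. The other 8 samples, 4 of each genotype after surgical myocardial infarction (KO MI and WT MI), entered the statistical model and are given only for side-by-side values. RNA was taken from the whole ventricle, polyadenylated transcripts were sequenced, and reads were counted per gene. The labels do not state the age in days, the time after surgery, the sex, the litter, the background strain or whether each library is 1 animal, so the p-values measure only the spread between these libraries.

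Chrna7 encodes the alpha 7 subunit of the nicotinic acetylcholine receptor, a ligand-gated cation channel of neurons, glia and several non-neuronal cells. Its best-known role outside the nervous system is in macrophages, where acetylcholine acting on it lowers the release of inflammatory cytokines. The newborn mouse heart is at a turning point: its muscle cells are leaving the cell cycle, trading fetal for adult isoforms of contractile proteins and moving from glucose to fatty acids as fuel. A whole ventricle also holds fibroblasts, vessel cells, macrophages, blood and the mesothelial covering of the heart, and the dissection decides how much atrium comes along. Gene lists for these cells and programmes are used below to order the results.

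Gene counts per library ranged from 10711442 to 13504923 in WT sham and from 12449879 to 15501352 in KO sham. Levels are given in CPM, the depth-scaled count, computed with edgeR's scaled library totals. A CPM mean is followed by its SD and a log2 difference (KO sham minus WT sham) by its SE, with n = 4 libraries per group and edgeR's adjusted p. In these libraries 3 counts equal 0.194 to 0.28 CPM. Reads on Chrna7 numbered 0, 2, 0 and 2 in the WT sham libraries and 0, 2, 0 and 1 in the KO sham libraries, too few to test. These counts are too low to check the genotype labels. The first principal component of all 16 libraries held 25.5% of the variance; the KO sham libraries scored 27.9 to 31.6 on it and no other library scored above 0.973. Genes on the Y chromosome were nearly absent from WT sham replicate 1 and KO sham replicate 2, at 1.73 and 2.13 CPM in sum, and present in the other 6 sham libraries. KO MI replicate 1 was similarly low, at 2.74 CPM. Every fit described below as without the 2 libraries low in Y-linked reads left out KO MI replicate 1 as well. Values of this fit stand beside some of the results it moved. In it edgeR's adjusted p also rose above 0.05 for Hadhb (0.187), Ide (0.141), Etfdh (0.115), Ltbp4 (0.105) and Hmcn2 (0.0997), described below. The same held for Mybpc3 (0.093), Pde4dip (0.0835), Klf13 (0.0617) and Tjp1 (0.0562).

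A large part of the transcriptome differed between the genotypes after sham surgery. With edgeR's quasi-likelihood test and a Benjamini-Hochberg adjusted p under 0.05, 2057 of 13412 genes tested were called (15.3%), 1019 of them higher in KO sham (7.6%) and 1038 lower (7.74%). These shares are the background for the counts of each gene list below. The differences were mostly moderate: the median absolute log2 fold change was 0.514 over called genes and 0.195 over all genes tested, and 84 genes were past 2-fold higher and 187 past 2-fold lower. The 4 libraries of one group did not overlap the 4 of the other for 1866 of the called genes (90.7%), against 26.3% of all genes tested. The median standard deviation of log2 CPM between libraries was 0.117 in KO sham and 0.174 in WT sham. Fits that left out 1 sham library called 1298 to 2077 genes, with the fewest without KO sham replicate 4, and 1237 genes were called without the 2 libraries low in Y-linked reads. With an index of atrial transcripts as a covariate 842 genes were called. With an index of mesothelial transcripts 1 gene was called and with an index of red cell transcripts 0, where the model without an index had 4235 genes at an unadjusted p under 0.05 and DESeq2 called 2445. None of the 3 indices overlapped between KO sham and WT sham, and their part in the other differences cannot be told apart from that of the genotype.

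**Figure D1:**
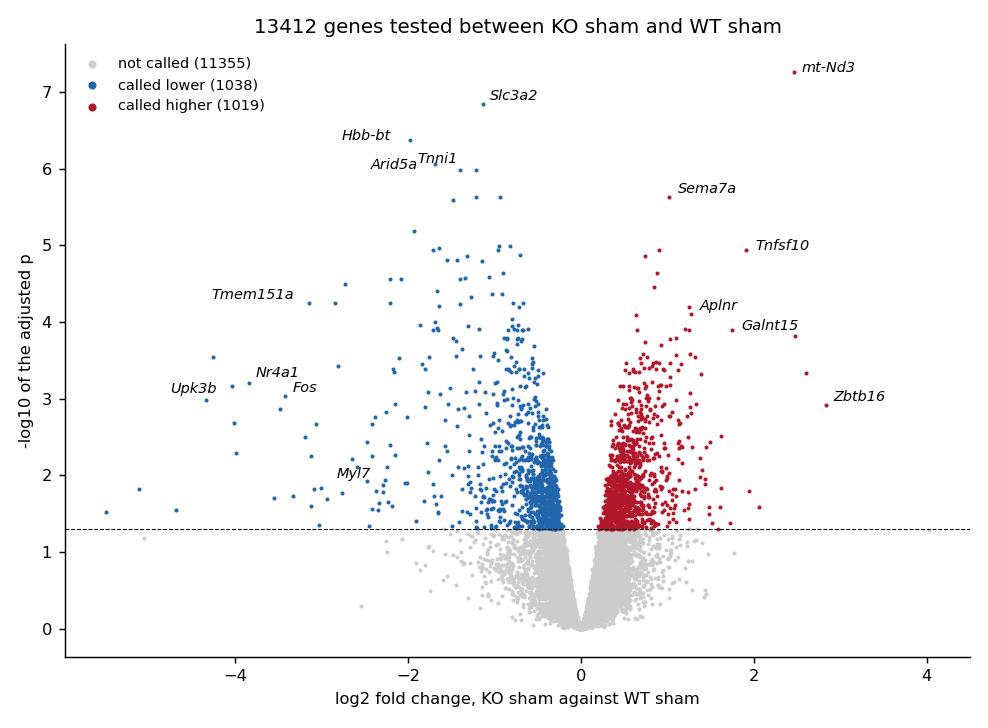
Each point is 1 of 13412 genes; the x axis is the log2 fold change of KO sham against WT sham and the y axis is minus log10 of the adjusted p, with a dashed line at 0.05. The 1019 genes called higher and 1038 called lower are coloured; the points farthest to the left, past -3, include Upk3b, Nr4a1 and Fos, and mt-Nd3 has the smallest p.

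The 2 smallest p-values belonged to a mitochondrial gene and an amino acid transporter. mt-Nd3 (ENSMUSG00000064360), a mitochondrially encoded subunit of respiratory complex I, stood at 4.5, 8.18, 6.39 and 7.15 CPM in WT sham and 34.5, 37.9, 29.4 and 43.6 CPM in KO sham. It was 5.53 times higher in knockout (log2 2.47 ± 0.17, adjusted p = 5.49e-08). Slc3a2 (ENSMUSG00000010095, chromosome 19), the heavy chain shared by several amino acid transporters, was at 106, 96.8, 90.4 and 96.3 CPM in WT sham and 45.9, 42.6, 44.2 and 44.3 CPM in KO sham. Slc3a2 was 2.2 times lower in knockout (log2 -1.14 ± 0.09, adjusted p = 1.42e-07). The KO sham libraries lay within 42.6 to 45.9 CPM, below every WT sham library. Arid5a, an RNA-binding protein that stabilises inflammatory transcripts, was at 31.6, 29.3, 29.1 and 37.4 CPM in WT sham and 9.83, 10.5, 9.94 and 9.38 CPM in KO sham. Arid5a differed by log2 -1.68 ± 0.15, adjusted p = 8.63e-07. Also among the lowest p-values were Olfml2b, an extracellular matrix protein (88 ± 3.24 CPM in WT sham and 38.1 ± 3.98 in KO sham; log2 -1.21 ± 0.11, adjusted p = 1.06e-06), and the matrix protein Spon2 (85.2 ± 3.38 CPM in WT sham and 44.7 ± 3.98 in KO sham; log2 -0.93 ± 0.09, adjusted p = 2.32e-06), both lower in every KO sham library. In the other direction stood Sema7a, a membrane-anchored semaphorin, at 40.6, 41.9, 46.4 and 44.8 CPM in WT sham and 91.1, 85.9, 91.3 and 82.5 CPM in KO sham. Sema7a was 2.02 times higher in knockout (log2 1.02 ± 0.10, adjusted p = 2.32e-06). Fitm2, which is needed for lipid droplet formation, was higher as well (28 ± 1.49 CPM in WT sham and 52.2 ± 7.05 in KO sham; log2 0.90 ± 0.10, adjusted p = 1.16e-05), as were Gpam, the first enzyme of triglyceride synthesis (72.5 ± 4.6 CPM in WT sham and 121 ± 3.23 in KO sham; log2 0.74 ± 0.08, adjusted p = 1.4e-05), and Dusp7, a phosphatase of ERK kinases (17.3 ± 2.06 CPM in WT sham and 32 ± 1.82 in KO sham; log2 0.88 ± 0.10, adjusted p = 2.31e-05). For each of these 9 genes the 2 groups did not overlap.

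**Figure D2:**
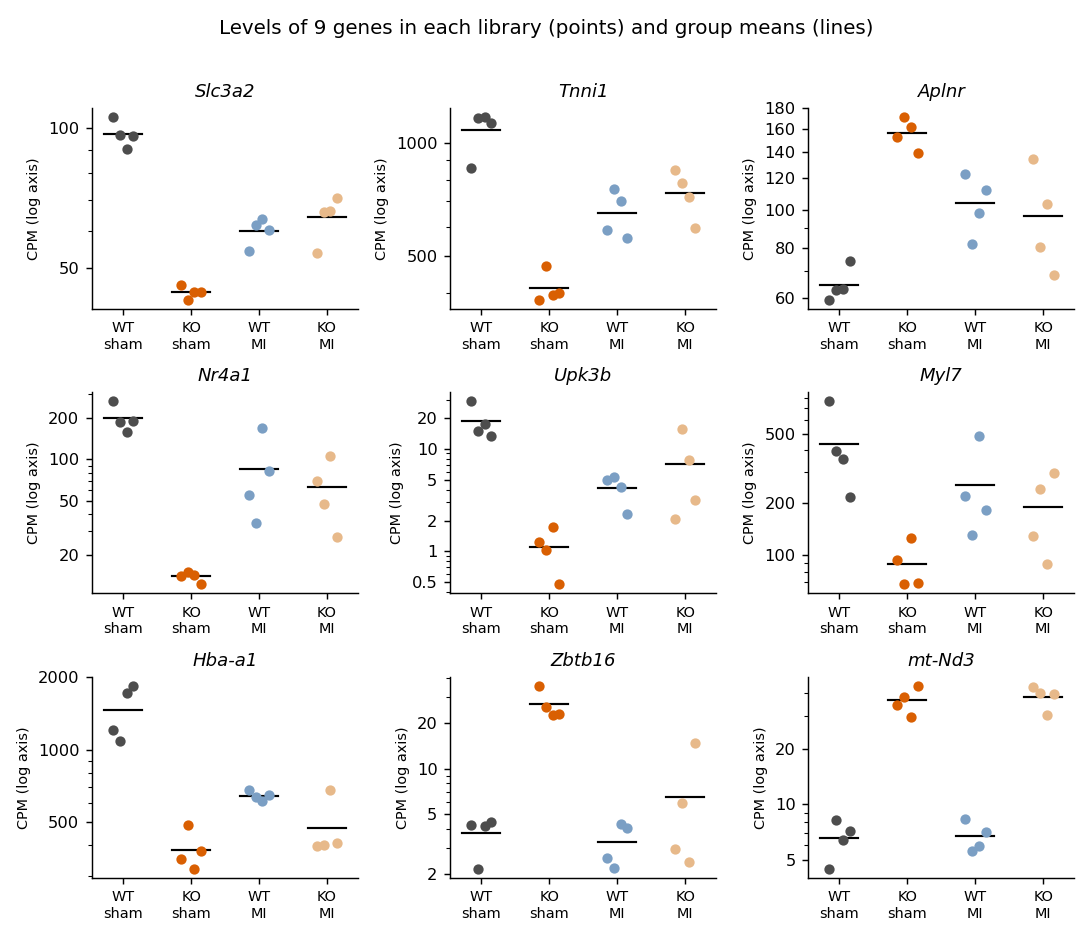
Each panel gives the level of 1 gene in CPM on a log axis; points are the 4 libraries of a group and lines are group means. KO sham lies below WT sham for Slc3a2, Tnni1, Nr4a1, Upk3b, Myl7 and Hba-a1 and above it for Aplnr, Zbtb16 and mt-Nd3, and for mt-Nd3 KO MI is as far above WT MI.

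Transcripts of the mesothelium, the cell layer that covers the heart, were far lower in KO sham. Of 16 epicardial and mesothelial markers 15 were called lower and 1 was not called, with a median log2 of -2.72, against -0.00556 over all genes tested. Upk3b, a uroplakin of the mesothelial surface, stood at 28.9, 15, 17.3 and 13.2 CPM in WT sham and 1.24, 1.03, 1.72 and 0.481 CPM in KO sham. Upk3b was 16.4 times lower in knockout (log2 -4.03 ± 0.60, adjusted p = 0.000677). The lowest WT sham library lay far above the highest KO sham library. Mesothelin (Msln) was at 43.9, 27, 29.6 and 26.7 CPM in WT sham and 2.08, 3.31, 3.51 and 2.57 CPM in KO sham. Msln differed by log2 -3.47 ± 0.55, adjusted p = 0.00138. Lrrn4, a leucine-rich repeat protein of mesothelium, was 16.1 times lower (log2 -4.01 ± 0.72, adjusted p = 0.00208), the mucin Muc16 15.9 times (log2 -3.99 ± 0.83, adjusted p = 0.00503), the uroplakin Upk1b 8.36 times (log2 -3.06 ± 0.58, adjusted p = 0.00213) and keratin 7 (Krt7) 4.75 times (log2 -2.25 ± 0.41, adjusted p = 0.0015). Wt1, the transcription factor that defines the epicardium, was at 18.7, 19.3, 17.7 and 19.6 CPM in WT sham and 9.05, 8.9, 12.3 and 11.9 CPM in KO sham. Wt1 differed by log2 -0.84 ± 0.16, adjusted p = 0.00205, less than the surface genes. C3, the central complement protein, which this list also holds, was at 125, 43.5, 55.3 and 47.9 CPM in WT sham and 7.03, 7.57, 9.04 and 8.5 CPM in KO sham. C3 differed by log2 -3.08 ± 0.73, adjusted p = 0.0149; its adjusted p was 0.0687 without the 2 libraries low in Y-linked reads. Keratin 14 (Krt14), which is not on this list, was at 3.37, 2.81, 1.28 and 1.06 CPM in WT sham and 0, 0.809, 0 and 0.241 CPM in KO sham. Krt14 differed by log2 -3.02 ± 0.96, adjusted p = 0.0443, a call that ended in 6 of 8 fits leaving out 1 library (adjusted p up to 0.107). The mesothelial list had 14 or 15 lower calls when any 1 sham library was left out and 3 once the atrial index was included. Its summed level was 238 to 376 CPM in WT sham, 98.5 to 112 in KO sham, 161 to 283 in WT MI and 187 to 490 in KO MI, so that KO sham was the only group below all others. Fewer cells of a type and less RNA per cell cannot be told apart in such samples, here and for the other cell types.

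Atrial transcripts were lower too. Of 13 atrial muscle markers 8 were called lower and 5 were not called (median log2 -1.02). Myl7, the atrial regulatory light chain, was at 766, 395, 358 and 215 CPM in WT sham and 93.6, 68, 125 and 69 CPM in KO sham. Myl7 was 4.87 times lower in knockout (log2 -2.28 ± 0.53, adjusted p = 0.0132). Myl4, the atrial essential light chain, was 4.73 times lower (log2 -2.24 ± 0.47, adjusted p = 0.00781), and Gja5, the connexin of atrium and conduction system, 2.21 times (log2 -1.15 ± 0.25, adjusted p = 0.00499). The adjusted p of Myl7 was 0.0857 and that of Myl4 0.0526 without the 2 libraries low in Y-linked reads. WT sham replicate 1 was the highest of all sham libraries for Myl7, Myl4 and Gja5, and WT sham replicate 4 the lowest of its group. Nppa, the atrial natriuretic peptide, which the newborn ventricle also makes, was at 1937, 1191, 1033 and 333 CPM in WT sham and 230.4, 145, 363 and 153 CPM in KO sham. Nppa differed by log2 -2.33 ± 0.61, adjusted p = 0.0231. The lowest WT sham library lay below the highest KO sham library, and the call ended without WT sham replicate 1 (adjusted p = 0.0521) or without KO sham replicate 1, 2 or 4 (0.0584, 0.0684 and 0.068); it was 0.0849 without the 2 libraries low in Y-linked reads. Nppb, the stretch-responsive peptide of the ventricle, was at 199 ± 20.5 CPM in WT sham and 154 ± 36.6 in KO sham and was not called (log2 -0.36 ± 0.27, adjusted p = 0.387). The number of lower atrial calls was 3 without WT sham replicate 1, KO sham replicate 2 or KO sham replicate 4, each left out alone, and 1 without the 2 libraries low in Y-linked reads. The atrial index, which averages Myl7, Myl4 and Sln on the log2 CPM scale, was 6.35 to 8.39 in WT sham and 4.71 to 5.9 in KO sham (two-sided exact permutation p = 0.0286, n = 4 per group, adjusted p = 0.0667 over 7 measures of tissue and library quality). This unadjusted p is the smallest that the test can give with 4 libraries per group.

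Markers of several other tissues were checked the same way. Of 4 liver genes tested 2 were called lower, among them transthyretin (Ttr, chromosome 18), at 1.12, 10.1, 0.731 and 1.84 CPM in WT sham and 0.586, 0.368, 0.523 and 0.321 CPM in KO sham; the high value came from WT sham replicate 2, without which the gene was not called (adjusted p = 0.119), and it was not called without KO sham replicate 2 or 4 either (0.0537 and 0.0568). Plin1, the lipid droplet coat protein of fat cells, was at 5.97, 1.56, 1 and 0.193 CPM in WT sham and 0.0651, 0, 0.149 and 0 CPM in KO sham. Plin1 was called lower (adjusted p = 0.0149) with 3 reads in all in KO sham, too few for a fold; the adjusted p was 0.101 without the 2 libraries low in Y-linked reads. Of 10 skeletal muscle genes 5 were called lower, a list that shares Acta1 and other genes with fetal heart. Of 10 Schwann cell and nerve genes 1, the growth factor receptor Erbb3, was called higher and 2 lower, and 6 of the 10 had a positive log2 (median 0.117). Both lower genes follow. The neuronal hydrolase Uchl1 was at 49.5, 58.8, 53.2 and 54.2 CPM in WT sham and 32.9, 27.9, 27.4 and 27.1 CPM in KO sham. Uchl1 differed by log2 -0.90 ± 0.11, adjusted p = 2.27e-05. The adhesion molecule Ncam1 was at 80.1, 85.5, 73.5 and 76.7 CPM in WT sham and 42.6, 49, 44.5 and 46.3 CPM in KO sham. Ncam1 differed by log2 -0.79 ± 0.17, adjusted p = 0.00417. None of 7 lung epithelium genes was called by edgeR or DESeq2, and 0 had an unadjusted p under 0.05. Their summed level was 3.9 to 97.1 CPM in WT sham and 53.5 to 64 in KO sham. Mean log2 CPM of this list was -1.64 in WT sham replicate 2 and 2.89, 2.46 and 2.63 in WT sham replicates 1, 3 and 4. With such a spread the lack of calls does not show equal levels. Cardiomyocyte markers summed to 128000 to 147000 CPM in WT sham and 125000 to 129000 in KO sham.

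**Figure D3:**
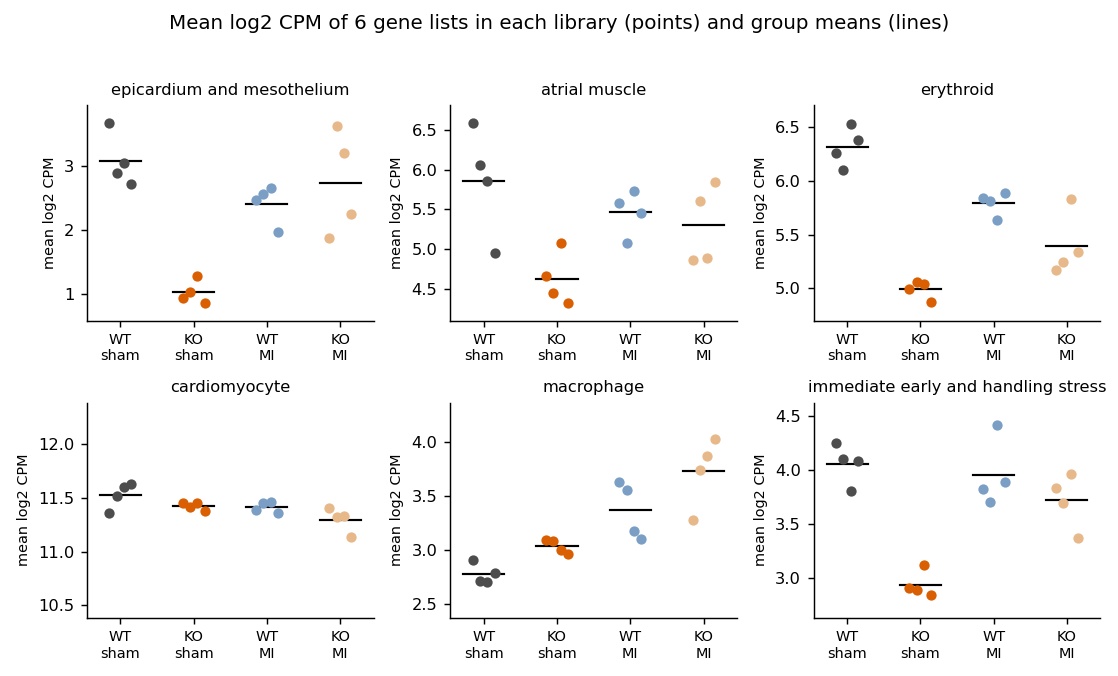
Each panel gives the mean log2 CPM of the tested members of 1 gene list; points are the 4 libraries of a group, lines are group means, and each y axis spans at least 2 log2 units. KO sham lies below WT sham for the mesothelial, erythroid and immediate early lists without overlap and for the atrial list with overlap, while the cardiomyocyte list differs little.

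Red cell transcripts were lower in the knockout hearts, by 2 to 4 times for the main globins. Of 11 erythroid genes 9 were called lower and 2 were not called (median log2 -1.64), and 9 of the 11 were called lower in each fit without 1 library, without the 2 libraries low in Y-linked reads and with the atrial index. Hba-a1, an adult alpha globin, was at 1202, 1090.1, 1712 and 1840.2 CPM in WT sham and 350.0, 487, 321 and 378 CPM in KO sham. Hba-a1 was 3.8 times lower in knockout (log2 -1.93 ± 0.19, adjusted p = 6.56e-06). The adult beta globins Hbb-bs (log2 -1.64 ± 0.17, adjusted p = 1.1e-05) and Hbb-bt (log2 -1.97 ± 0.16, adjusted p = 4.29e-07) were 3.11 and 3.92 times lower. Alas2, which starts haem synthesis in red cell precursors and is not a globin, was at 124, 116, 132 and 109 CPM in WT sham and 44.5, 50.3, 40.1 and 38.2 CPM in KO sham. Alas2 differed by log2 -1.48 ± 0.14, adjusted p = 2.58e-06. Summed haemoglobin ranged from 2840.8 to 4612 CPM in WT sham and from 946.5 to 1353 in KO sham (exact permutation p = 0.0286, the smallest this test can give, adjusted p = 0.0667). Leaving haemoglobin and mitochondrially encoded genes out of the table gave 2108 called genes, of which 56.6% were higher, against 49.5% in the full table.

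Immediate early genes, whose transcripts appear within minutes of a stimulus without new protein synthesis, were lower in KO sham. Of 23 genes of this list 15 were called lower and 8 were not called (median log2 -0.83). The promoters of 3 of the strongest are shown because they carry the short core of the cyclic AMP response element through which stimuli act on this class. The 250 bases before the RefSeq start (GRCm38.p6) are given 5′ to 3′ on the gene's strand, all plus, with TGACG or its complement CGTCA in capitals.
Fos, chr12:85473640-85473889: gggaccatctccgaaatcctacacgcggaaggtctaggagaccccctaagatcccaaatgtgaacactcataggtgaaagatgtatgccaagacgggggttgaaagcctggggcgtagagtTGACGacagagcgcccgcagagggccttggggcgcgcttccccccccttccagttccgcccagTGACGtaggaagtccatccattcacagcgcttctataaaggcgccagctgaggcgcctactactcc
Nr4a1, chr15:101266596-101266845: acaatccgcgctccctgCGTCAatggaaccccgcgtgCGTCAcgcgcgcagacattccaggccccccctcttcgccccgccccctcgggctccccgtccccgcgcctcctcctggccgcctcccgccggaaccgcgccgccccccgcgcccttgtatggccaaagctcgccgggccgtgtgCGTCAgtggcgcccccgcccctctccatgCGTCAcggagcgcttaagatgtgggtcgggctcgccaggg
Nr4a3, chr4:48045055-48045304: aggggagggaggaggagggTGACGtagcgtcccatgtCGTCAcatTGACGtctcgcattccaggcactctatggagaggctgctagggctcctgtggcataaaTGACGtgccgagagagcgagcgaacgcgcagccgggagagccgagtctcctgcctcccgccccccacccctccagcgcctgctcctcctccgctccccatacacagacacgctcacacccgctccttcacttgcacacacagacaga
The core of that element, searched on both strands, occurs in 13 of the 18 immediate early genes with a promoter in the table (72.2%), in 11 of the 14 called lower (78.6%) and in 29.7% of 10462 tested genes. The full element TGACGTCA, which contains the core, occurs in 3 of the 18 (16.7%) and in 2.94% of tested genes. A match describes the letters of these windows and is not evidence of binding.

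Fos, a partner in the AP-1 transcription factor, was at 15.2, 15.1, 4.39 and 9.28 CPM in WT sham and 0.586, 1.32, 1.42 and 0.802 CPM in KO sham. Fos was 10.7 times lower in knockout (log2 -3.42 ± 0.54, adjusted p = 0.000909). The WT sham libraries varied widely, and even the lowest, replicate 3, lay above every KO sham library. Nr4a1, an orphan nuclear receptor induced by stress and calcium, was at 266, 187, 159 and 189.7 CPM in WT sham and 14.1, 15.1, 14.4 and 12.3 CPM in KO sham. Nr4a1 was 14.3 times lower in knockout (log2 -3.84 ± 0.52, adjusted p = 0.000615). The 4 KO sham libraries lay close together and far below WT sham. Its relative Nr4a3 was at 15.4, 6.78, 12.5 and 10.2 CPM in WT sham and 1.76, 1.18, 2.32 and 0.962 CPM in KO sham. Nr4a3 differed by log2 -2.84 ± 0.35, adjusted p = 5.59e-05. Atf3, a stress-induced repressor, was 4.61 times lower (18.6 ± 3.44 CPM in WT sham and 4 ± 1.35 in KO sham; log2 -2.20 ± 0.26, adjusted p = 2.78e-05), and the small Maf protein Maff 2.38 times (9.25 ± 1.47 CPM in WT sham and 3.9 ± 0.385 in KO sham; log2 -1.25 ± 0.20, adjusted p = 0.00041). Summed over the list, the level was 883 to 1170 CPM in WT sham, 462 to 605 in KO sham, 908 to 1340 in WT MI and 615 to 1040 in KO MI. The count of lower calls was 13 to 16 in the fits without 1 library and 7 with the atrial index. How long each heart was handled before lysis is not stated, and the part of handling was not tested.

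Several contractile isoforms of the fetal and newborn heart were lower. Of 20 genes on the list of fetal and perinatal isoforms 11 were called lower, 2 higher and 7 not (median log2 -0.40). The lower ones include Pkm, Nppa and the respiratory chain subunits Cox8a and Cox7a2, which are not contractile, and one of the higher ones is the channel gene Kcnj8. Of 20 adult sarcomere isoforms 3 were called lower and 17 not (median -0.0532), a share near the 15.3% of all genes. This list had 6 lower calls without WT sham replicate 1 and 1 without each of the other libraries. Tnni1, the slow skeletal troponin I that the heart replaces after birth, was at 858, 1164, 1174 and 1129.5 CPM in WT sham and 383, 469.8, 396 and 398 CPM in KO sham. Tnni1 was 2.63 times lower in knockout (log2 -1.39 ± 0.13, adjusted p = 1.06e-06). Its adult counterpart Tnni3 was at 3258 ± 492 CPM in WT sham and 2742 ± 125 in KO sham and was not called (log2 -0.25 ± 0.11, adjusted p = 0.119). Acta1, skeletal alpha actin, was at 121, 211, 173 and 142 CPM in WT sham and 46.2, 58.5, 76.3 and 57.7 CPM in KO sham. Acta1 differed by log2 -1.44 ± 0.20, adjusted p = 0.000279. Tnnt1, slow skeletal troponin T, was 1.67 times lower (67.3 ± 7.69 CPM in WT sham and 40.3 ± 2.91 in KO sham; log2 -0.74 ± 0.11, adjusted p = 0.000167). Myh8, the perinatal myosin heavy chain, was at 11.2, 6.47, 7.22 and 3.96 CPM in WT sham and 1.37, 0.956, 0.972 and 1.04 CPM in KO sham. Myh8 differed by log2 -2.72 ± 0.33, adjusted p = 3.15e-05. Beta myosin heavy chain (Myh7), the fetal ventricular isoform in mice, was at 754, 532, 841 and 599 CPM in WT sham and 439.8, 393, 429 and 399 CPM in KO sham. Myh7 differed by log2 -0.72 ± 0.17, adjusted p = 0.00936 (adjusted p = 0.0703 without the 2 libraries low in Y-linked reads). Alpha myosin heavy chain (Myh6), the adult isoform, was at 35776 ± 2622 CPM in WT sham and 31873 ± 1238 in KO sham and was not called (log2 -0.17 ± 0.18, adjusted p = 0.571). The fetal list counts Nppa, Myl7 and Myl4 among its members, so it overlaps the atrial list, and its lower calls numbered 8 to 11 without 1 library, 5 without the 2 libraries low in Y-linked reads and 4 with the atrial index.

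Of 25 cardiomyocyte markers 4 were called lower and 21 not (median log2 -0.0869), a share near the 15.3% of all genes. The lower calls numbered 9 without WT sham replicate 1 and 2 without each of the other libraries. Troponin C (Tnnc1), the calcium sensor of cardiac muscle, was at 2837, 3217, 4102 and 4105 CPM in WT sham and 2520.2, 2542, 2709.8 and 2208 CPM in KO sham. Tnnc1 differed by log2 -0.52 ± 0.11, adjusted p = 0.00399. Muscle creatine kinase (Ckm; log2 -0.31 ± 0.10, adjusted p = 0.0413) and myosin-binding protein C (Mybpc3; log2 -0.37 ± 0.12, adjusted p = 0.0449) were each called in 1 of the 8 fits that left out a library, the one without WT sham replicate 1, with adjusted p up to 0.121 and 0.111 in the others. The calcium pump Atp2a2 (levels of 9716 ± 431 CPM in WT sham and 11494 ± 223 in KO sham; log2 0.24 ± 0.11, adjusted p = 0.124) and the ryanodine receptor Ryr2 (1378 ± 232 CPM in WT sham and 1504 ± 107 in KO sham; log2 0.13 ± 0.14, adjusted p = 0.567) were not called, and of 24 calcium handling genes 1 was called higher and 3 lower, a share near the 15.3% of all genes. No calcium handling gene was called lower without KO sham replicate 1, 2 or 4, or without the 2 libraries low in Y-linked reads, by edgeR, where 9 of the 24 had an unadjusted p under 0.05 and DESeq2 called 5 over all libraries. The higher call ended without WT sham replicate 2. Mylk3, the kinase of the ventricular myosin light chain, was at 707, 733, 714 and 614 CPM in WT sham and 542, 557, 499.5 and 492 CPM in KO sham. Mylk3 differed by log2 -0.40 ± 0.09, adjusted p = 0.00416. Dystrophin (Dmd), which ties the cytoskeleton to the membrane, was higher, at 77.6, 57.9, 72.4 and 65.7 CPM in WT sham and 102, 103, 101 and 121 CPM in KO sham. Dmd differed by log2 0.64 ± 0.12, adjusted p = 0.0015. Of the 28 Z-disc and membrane scaffold genes 4 were called higher and 1 lower, a share near that of all genes, and the higher calls numbered 1 or 2 without any 1 library.

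**Figure D4:**
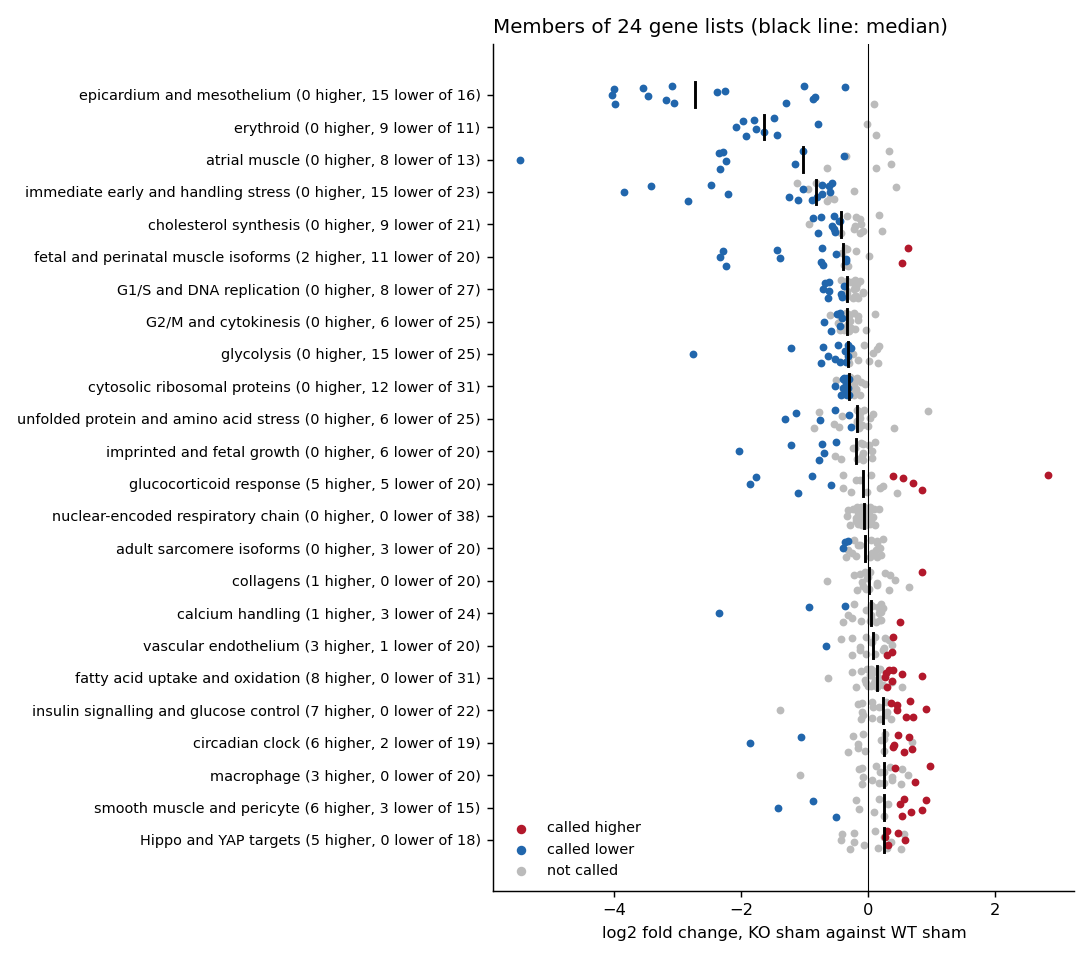
Each row is a gene list and each point a tested member, placed on the x axis by its log2 fold change of KO sham against WT sham; black lines are list medians and colours mark calls. Medians run from -2.72 for epicardium and mesothelium to 0.257 for Hippo and YAP targets.

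Smooth muscle and pericyte markers, which both come from the vessel wall, were called in both directions. Of 15 markers 6 were called higher, 3 lower and 6 not, and 10 had a positive log2. Those not called were Myh11, Smtn, Mylk and Des of muscle and Cspg4 and Higd1b of pericytes, so the directions below are those of called members only. With the atrial index 1 was called higher and 2 lower. The higher ones were pericyte genes: Rgs5, a regulator of G-protein signalling and pericyte marker, was at 113, 94.1, 114 and 132 CPM in WT sham and 215, 206, 204 and 227 CPM in KO sham. Rgs5 differed by log2 0.91 ± 0.15, adjusted p = 0.000669. Kcnj8, a pore subunit of pericyte ATP-sensitive potassium channels, was at 55, 65.2, 57 and 71.8 CPM in WT sham and 91.1, 95.2, 96.3 and 78 CPM in KO sham. Kcnj8 differed by log2 0.53 ± 0.11, adjusted p = 0.00316; Abcc9, Pdgfrb, Vtn and Notch3 were also called higher. The lower ones were contractile genes: Tagln, an actin-binding protein of smooth muscle, was at 88.1, 76.6, 87.2 and 75.2 CPM in WT sham and 42.3, 42.6, 49.4 and 45.5 CPM in KO sham. Tagln differed by log2 -0.86 ± 0.13, adjusted p = 0.000235. Calponin (Cnn1) was at 12.1, 8.03, 10 and 8.8 CPM in WT sham and 2.34, 4.56, 4.41 and 3.29 CPM in KO sham. Cnn1 differed by log2 -1.42 ± 0.26, adjusted p = 0.00138. Acta2, smooth muscle actin, was called lower as well. The summed level of the list was 3110 to 3810 CPM in WT sham and 3300 to 3620 in KO sham, so the groups overlapped in sum.

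The apelin system of the endothelium moved in opposite directions. Aplnr, the apelin receptor, was at 59.4, 62.7, 63.2 and 74.2 CPM in WT sham and 153, 171, 162 and 139 CPM in KO sham. Aplnr was 2.41 times higher in knockout (log2 1.27 ± 0.16, adjusted p = 7.82e-05). Apln, its peptide ligand, was at 21.7, 21.2, 26.5 and 25.2 CPM in WT sham and 7.68, 7.79, 12.3 and 10.6 CPM in KO sham. Apln was 2.47 times lower in knockout (log2 -1.30 ± 0.18, adjusted p = 0.000113). Neither gene overlapped between the groups. Among 18 angiogenic genes, which include these, 5 were called higher and 1 lower, beside 15.3% of all genes. The higher calls numbered 1 without KO sham replicate 2 and 2 without WT sham replicates 2 or 3 or KO sham replicates 1 or 3. They numbered 1 without the 2 libraries low in Y-linked reads. Of 20 vascular endothelium markers 3 were called higher and 1 lower, again beside 15.3% of all genes. Without KO sham replicate 2, or without the 2 libraries low in Y-linked reads, no member was called higher by edgeR. The higher calls numbered 1 without WT sham replicate 3 or KO sham replicates 1 or 3. DESeq2 called 6 of the 20 and 10 had an unadjusted p under 0.05.

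Glycolysis transcripts were lower, by small amounts. Of 25 entries of the list, 2 of them annotated Aldoa, 15 were called lower and 10 were not called (median log2 -0.31). Slc16a3, which exports lactate, was at 15.7, 13.5, 17.5 and 13.6 CPM in WT sham and 6.57, 5, 7.03 and 7.3 CPM in KO sham. Slc16a3 was 2.33 times lower in knockout (log2 -1.22 ± 0.21, adjusted p = 0.000801). Phosphoglycerate mutase (Pgam1) was at 81.1, 70.3, 80.9 and 81.3 CPM in WT sham and 42.9, 45.3, 57.2 and 47.1 CPM in KO sham. Pgam1 differed by log2 -0.70 ± 0.13, adjusted p = 0.00125. Enolase (Eno1) was at 556, 677, 644 and 574 CPM in WT sham and 389, 379.9, 411 and 395 CPM in KO sham. Eno1 differed by log2 -0.64 ± 0.12, adjusted p = 0.0016. Pyruvate kinase (Pkm; 2192 ± 118 CPM in WT sham and 1726 ± 120.2 in KO sham; log2 -0.34 ± 0.09, adjusted p = 0.0122) and lactate dehydrogenase A (Ldha; 1354 ± 74.5 CPM in WT sham and 998 ± 35.8 in KO sham; log2 -0.44 ± 0.10, adjusted p = 0.00481) showed the same direction at high levels. Aldoa (ENSMUSG00000030695), the muscle aldolase, was at 2611 ± 285 CPM in WT sham and 2023 ± 63.9 in KO sham (log2 -0.37 ± 0.10, adjusted p = 0.0206) and was not called in 4 of 8 fits without 1 library. The list had 9 to 14 lower calls in those fits, 9 when length and GC of the transcripts were corrected for and 5 with the atrial index. The promoter of Ldha is shown for its copies of the hypoxia response core ACGTG (or CACGT, in capitals, together with 1 full TGACGTCA), 250 bases before the first RefSeq start (GRCm38.p6, plus strand).
Ldha, chr7:46845554-46845803: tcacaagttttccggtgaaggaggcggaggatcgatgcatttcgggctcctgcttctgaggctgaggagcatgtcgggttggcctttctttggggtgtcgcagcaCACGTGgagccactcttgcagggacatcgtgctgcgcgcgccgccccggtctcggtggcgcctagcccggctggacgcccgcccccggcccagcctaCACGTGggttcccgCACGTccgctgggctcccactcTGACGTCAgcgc
That core occurs in 11 of 23 glycolysis genes with a promoter (47.8%), in 6 of the 15 called lower (40%) and in 24.8% of tested genes. The 20 hypoxia targets did not move one way: 4 were called higher and 3 lower, beside 15.3% of all genes.

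Some genes of fatty acid use and of the cell's response to insulin were higher, and none of either list was called lower. Over all genes tested 7.6% were called higher. Of 31 genes of fatty acid uptake and oxidation 8 were called higher and 23 were not called (median log2 0.14). Pdk4, which blocks glucose oxidation when fat is burned, was at 136, 166, 136 and 157 CPM in WT sham and 235, 249, 243 and 351 CPM in KO sham. Pdk4 differed by log2 0.86 ± 0.15, adjusted p = 0.00125, with KO sham replicate 4 the highest. Cpt1a, the gate of fatty acids into mitochondria, was at 99.8, 89.4, 107 and 114 CPM in WT sham and 130.2, 129.9, 128 and 143 CPM in KO sham. Cpt1a differed by log2 0.37 ± 0.09, adjusted p = 0.00937. Lipoprotein lipase (Lpl) was at 613, 661, 607 and 621 CPM in WT sham and 845, 802, 773 and 847 CPM in KO sham. Lpl differed by log2 0.39 ± 0.10, adjusted p = 0.0109. Etfdh (log2 0.26 ± 0.08, adjusted p = 0.031) and Hadhb (log2 0.29 ± 0.10, adjusted p = 0.0492), 2 abundant enzymes of the pathway, lost their calls in 6 and 7 of the 8 fits without 1 library. The list had 4 to 9 higher calls in those fits, 3 without the 2 libraries low in Y-linked reads and 1 with the atrial index. Of 22 genes of insulin signalling and glucose control 7 were called higher and 15 not (median 0.238). Txnip, an inhibitor of glucose uptake, was at 375, 437, 327 and 395 CPM in WT sham and 537, 862, 589 and 888 CPM in KO sham. Txnip differed by log2 0.91 ± 0.15, adjusted p = 0.000798. Pik3r1, the regulatory subunit of PI3 kinase, was at 24.8, 16.6, 25.8 and 18.9 CPM in WT sham and 34.6, 35.4, 32.4 and 37.7 CPM in KO sham. Pik3r1 differed by log2 0.70 ± 0.14, adjusted p = 0.00237. Sesn1, a sensor of amino acids, was at 42.1, 38.3, 39.1 and 39.2 CPM in WT sham and 67.9, 66.2, 54.9 and 60.8 CPM in KO sham. Sesn1 differed by log2 0.65 ± 0.09, adjusted p = 0.000128. Ide, the insulin-degrading enzyme, was at 139, 137, 128 and 184 CPM in WT sham and 219, 212, 219 and 244 CPM in KO sham. Ide differed by log2 0.60 ± 0.20, adjusted p = 0.0482; its call ended in 7 of 8 fits without 1 library (adjusted p up to 0.125) and remained without WT sham replicate 4 (0.0323). The insulin list had 3 to 6 higher calls in these fits, the fewest without WT sham replicate 2 or KO sham replicates 3 or 4, and 3 without the 2 libraries low in Y-linked reads.

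Nuclear-encoded respiratory chain subunits were not called over all libraries: of 38 tested, edgeR and DESeq2 called 0 and 5 had an unadjusted p under 0.05 (median log2 -0.0661). Without WT sham replicate 1 edgeR called 5 of them lower, and without the 2 libraries low in Y-linked reads 2. Of 13 mitochondrially encoded genes 2 were called, both higher, a share near the 15.3% of all genes. They were mt-Nd3, described above, and mt-Nd5, at 8851, 12589, 8609 and 7812 CPM in WT sham and 14329, 14381, 13546 and 15414 CPM in KO sham. mt-Nd5 differed by log2 0.61 ± 0.14, adjusted p = 0.00559. Mitochondrially encoded genes took 9.51 to 13.4% of the gene counts in WT sham and 11.8 to 13% in KO sham (exact permutation p = 0.143). Cholesterol synthesis transcripts were lower, with 9 of 21 genes called lower and 12 not called (median log2 -0.43). Sqle, the squalene epoxidase of that pathway, was at 14.6, 14.5, 13.7 and 10.7 CPM in WT sham and 6.25, 6.03, 7.92 and 9.3 CPM in KO sham. Sqle differed by log2 -0.87 ± 0.19, adjusted p = 0.00436. Srebf2, the transcription factor that drives it, was at 92.2, 91.4, 97.1 and 90.3 CPM in WT sham and 57.7, 62.4, 79 and 58.8 CPM in KO sham. Srebf2 differed by log2 -0.52 ± 0.12, adjusted p = 0.00616. The methylsterol oxidase Msmo1 was lower too (11.6 ± 1.92 CPM in WT sham and 6.76 ± 0.336 in KO sham; log2 -0.78 ± 0.19, adjusted p = 0.0104). The list had 5 to 8 lower calls without 1 library, 4 without the 2 libraries low in Y-linked reads, and none by edgeR once the atrial index was a covariate. Over all libraries and without that covariate 12 of the 21 had an unadjusted p under 0.05 and DESeq2 called 9.

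A minority of cell cycle genes were called lower in KO sham, and none was called higher. Of 27 genes of the G1/S transition and DNA replication 8 were called lower and 19 not (median log2 -0.34). Of 25 genes of mitosis and cytokinesis 6 were called lower and 19 not (median -0.33). Over all genes tested 7.74% were called lower. A positive log2 was found for 0 of the 27 and 1 of the 25, so nearly all members leaned down. Chaf1b, a histone chaperone of replicating chromatin, was at 16.4, 22.1, 21.8 and 16.9 CPM in WT sham and 10.7, 12.7, 11 and 12.8 CPM in KO sham. Chaf1b differed by log2 -0.71 ± 0.16, adjusted p = 0.00637. Uhrf1, which carries DNA methylation through replication, was at 44.5, 47.7, 55 and 46 CPM in WT sham and 25.3, 32.2, 30.3 and 38.4 CPM in KO sham. Uhrf1 differed by log2 -0.62 ± 0.15, adjusted p = 0.0114. Cyclin E1 (Ccne1) was at 10.4, 9.9, 11.9 and 9.09 CPM in WT sham and 6.25, 6.76, 5.9 and 7.62 CPM in KO sham. Ccne1 differed by log2 -0.64 ± 0.16, adjusted p = 0.0136 (0.059 without the 2 libraries low in Y-linked reads). Topoisomerase Top2a (164 ± 14.2 CPM in WT sham and 117 ± 8.08 in KO sham; log2 -0.49 ± 0.13, adjusted p = 0.0188) and survivin (Birc5; 36 ± 5.84 CPM in WT sham and 23.9 ± 2.77 in KO sham; log2 -0.59 ± 0.15, adjusted p = 0.0135) were lower, and without WT sham replicate 3 neither was called (adjusted p = 0.0583 and 0.0542); Top2a was not called without KO sham replicate 3 (0.0616) or without the 2 libraries low in Y-linked reads (0.0593) either. Mki67 (214 ± 18.7 CPM in WT sham and 191 ± 7.85 in KO sham; log2 -0.16 ± 0.13, adjusted p = 0.388), Ccnb1 (50 ± 5.24 CPM in WT sham and 39.2 ± 2.2 in KO sham; log2 -0.35 ± 0.16, adjusted p = 0.142), Aurkb (24.1 ± 1.47 CPM in WT sham and 17.3 ± 2.75 in KO sham; log2 -0.47 ± 0.17, adjusted p = 0.0704) and Anln (60.1 ± 6.14 CPM in WT sham and 48.4 ± 2.41 in KO sham; log2 -0.31 ± 0.14, adjusted p = 0.147), which mark proliferation and cell division, were not called. Without WT sham replicate 3 the mitosis list had no called gene in edgeR, where 15 of 25 had an unadjusted p under 0.05 and DESeq2 called 8 over all libraries, and the replication list had 4. The replication list also had 4 without KO sham replicate 1 or 2, 5 without KO sham replicate 3 and 4 without the 2 libraries low in Y-linked reads. The mitosis list had 2 without KO sham replicate 3 or 4, 3 without WT sham replicate 2 or KO sham replicate 1, 4 without KO sham replicate 2 and 2 without the 2 libraries low in Y-linked reads.

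Cytosolic ribosomal proteins, the constituents of the translating ribosome, were shifted down together by small amounts. All 31 tested had a negative log2 (median -0.295, -0.517 to -0.0426), and 12 were called lower. Rplp1 was at 527, 639, 794 and 932 CPM in WT sham and 500.3, 513, 545 and 463 CPM in KO sham. Rplp1 differed by log2 -0.52 ± 0.14, adjusted p = 0.0183; its adjusted p was 0.0601 and 0.0729 with WT sham replicates 3 and 4 left out in turn, 0.0607 without KO sham replicate 4 and 0.056 after correction for length and GC. The count was 0 without WT sham replicate 3 (25 of the 31 had an unadjusted p under 0.05 and DESeq2 called 19 over all libraries), 20 when WT sham replicate 1 was left out, 9 for replicate 2 and 1 for replicate 4. For KO sham replicates 1 to 4 left out in turn it was 3, 2, 5 and 1, and it was 4 after the length and GC correction. Ribosomal protein transcripts are short, and fold changes followed transcript length over all genes. With the genes cut into 5 equal classes of length, the median log2 was -0.0731 in the shortest class and 0.143 in the longest, where 368 genes were called higher and 117 lower. After the correction the shortest and longest classes had medians of -0.0014 and 0.018, 2127 genes were called and 79.3% of the 2057 calls remained. RNA integrity is not given, and its part was not tested.

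Imprinted and fetal growth genes gave 6 lower calls among 20 tested, with 14 not called, beside 7.74% of all genes called lower. Mest, a paternally expressed gene of fetal growth, was at 215, 261, 234 and 256 CPM in WT sham and 153, 136, 154 and 139 CPM in KO sham. Mest differed by log2 -0.73 ± 0.11, adjusted p = 0.000164. The zinc finger gene Plagl1, which regulates the imprinted network, was at 68.3, 60.8, 66.7 and 64.9 CPM in WT sham and 40, 48.7, 46.3 and 48.7 CPM in KO sham. Plagl1 differed by log2 -0.51 ± 0.12, adjusted p = 0.00639. Dlk1, a fetal Notch-like ligand, was at 24.8, 32, 25.3 and 25.6 CPM in WT sham and 12.2, 20.1, 20 and 14.3 CPM in KO sham. Dlk1 differed by log2 -0.70 ± 0.17, adjusted p = 0.0083. The RNA-binding protein Igf2bp3 was at 10.2, 9.35, 12.8 and 7.54 CPM in WT sham and 5.08, 5.88, 6.05 and 6.42 CPM in KO sham. Igf2bp3 differed by log2 -0.77 ± 0.18, adjusted p = 0.00702. Igf2 itself was at 175 ± 15.6 CPM in WT sham and 155 ± 9.54 in KO sham and was not called (log2 -0.17 ± 0.13, adjusted p = 0.409). Of 18 Hippo pathway genes and YAP targets 5 were called higher and 13 not (median log2 0.257), beside 7.6% of all genes called higher. The higher calls numbered 2 without WT sham replicate 2. The LIM protein Ajuba, which holds back the Hippo kinases, was at 20.7, 17.1, 21.2 and 14.8 CPM in WT sham and 27.9, 25.8, 29.7 and 26.9 CPM in KO sham. Ajuba differed by log2 0.58 ± 0.11, adjusted p = 0.00155. The kinase Lats1 itself was at 14.5, 11.5, 13.8 and 12.2 CPM in WT sham and 18.7, 17.7, 17.3 and 18.7 CPM in KO sham. Lats1 differed by log2 0.48 ± 0.12, adjusted p = 0.0119.

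Genes driven by glucocorticoids and by the clock were called in both directions. Over all genes tested 15.3% were called. Of 20 glucocorticoid-responsive genes 5 were higher and 5 lower, and without any 1 library there were 5 lower calls and 3 to 5 higher ones. The higher calls numbered 3 without KO sham replicate 2 and 3 without the 2 libraries low in Y-linked reads. Zbtb16, a transcription factor strongly induced by glucocorticoids, was at 4.24, 2.18, 4.2 and 4.45 CPM in WT sham and 35.4, 25.5, 22.7 and 23 CPM in KO sham. Zbtb16 was 7.14 times higher in knockout (log2 2.84 ± 0.46, adjusted p = 0.00119). Per1, a clock gene that glucocorticoids and cyclic AMP also induce, went the other way, at 124, 107, 98 and 130.1 CPM in WT sham and 30, 33.7, 33.1 and 29.9 CPM in KO sham. Per1 was 3.63 times lower in knockout (log2 -1.86 ± 0.23, adjusted p = 0.000111). The metal-binding metallothioneins Mt2 (6.92, 7.95, 12.6 and 11.3 CPM in WT sham and 3.97, 2.35, 2.09 and 2.89 CPM in KO sham; log2 -1.76 ± 0.26, adjusted p = 0.000285) and Mt1 (78.9 ± 22.1 CPM in WT sham and 42.5 ± 3.44 in KO sham; log2 -0.89 ± 0.15, adjusted p = 0.000798) were lower as well. Of 19 clock genes 6 were called higher and 2 lower. Bhlhe40, a repressor of the clock, was at 48.9, 50.1, 43 and 50.7 CPM in WT sham and 23.9, 23.2, 26.5 and 18.8 CPM in KO sham. Bhlhe40 differed by log2 -1.06 ± 0.13, adjusted p = 2.61e-05. Its relative Bhlhe41 was at 12.5, 12.2, 10 and 12.5 CPM in WT sham and 15.4, 17.9, 19.5 and 17.6 CPM in KO sham. Bhlhe41 differed by log2 0.57 ± 0.15, adjusted p = 0.013. Tef, an output factor of the clock, was higher (30.7 ± 2.34 CPM in WT sham and 49.6 ± 1.86 in KO sham; log2 0.70 ± 0.11, adjusted p = 0.000344). The time of day at harvest is not stated, and the higher clock calls numbered 2 without WT sham replicate 3, KO sham replicate 2 or KO sham replicate 4, 3 without WT sham replicate 2 or KO sham replicate 1, and 2 without the 2 libraries low in Y-linked reads.

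Several amino acid stress genes were lower besides Slc3a2, which is on that list too. Of 25 genes of the unfolded protein and amino acid response 6 were called lower and 19 not (median log2 -0.174), or 3 lower without WT sham replicate 2. Atf4, the transcription factor of that response, was at 135, 161, 153 and 138 CPM in WT sham and 102, 102, 106 and 98.8 CPM in KO sham. Atf4 differed by log2 -0.52 ± 0.09, adjusted p = 0.00107. Psat1, an enzyme of serine synthesis, was at 27.1, 26.1, 26.3 and 21.8 CPM in WT sham and 14.3, 13.1, 16.7 and 16.2 CPM in KO sham. Psat1 differed by log2 -0.75 ± 0.18, adjusted p = 0.00879.

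Among genes of autonomic receptor signalling, enzymes that end cyclic AMP signals were called in both directions. Of 20 cholinergic and adrenergic genes tested 3 were called higher and 2 lower, beside 15.3% of all genes. In the fits without 1 library the higher calls numbered 2 to 4 and the lower calls 1 to 3. The phosphodiesterase Pde4b was at 79.6, 68.9, 73.2 and 74.2 CPM in WT sham and 41.7, 42.7, 42.7 and 38.2 CPM in KO sham. Pde4b differed by log2 -0.84 ± 0.12, adjusted p = 0.000126. Pde3a, another phosphodiesterase of the heart, was at 41.8, 28.2, 37.1 and 39.2 CPM in WT sham and 58.1, 64.9, 62.4 and 57.5 CPM in KO sham. Pde3a differed by log2 0.73 ± 0.16, adjusted p = 0.00496. Rgs4, which shortens signals of muscarinic and other receptors, was at 3.8, 3.9, 3.47 and 3.87 CPM in WT sham and 6.12, 7.06, 6.2 and 7.46 CPM in KO sham. Rgs4 differed by log2 0.83 ± 0.16, adjusted p = 0.0018. Among 21 ion channels and gap junction genes 4 were called higher and 2 lower, beside 15.3% of all genes. Kcnd2, a pore subunit of the transient outward potassium current, was at 3.98, 3.98, 3.75 and 4.64 CPM in WT sham and 9.63, 9.92, 9.12 and 6.74 CPM in KO sham. Kcnd2 differed by log2 1.12 ± 0.23, adjusted p = 0.00378. The pacemaker channel Hcn2 was at 23.5, 36.1, 26.8 and 33 CPM in WT sham and 41, 41.9, 51.8 and 46.7 CPM in KO sham. Hcn2 differed by log2 0.60 ± 0.15, adjusted p = 0.0128. Among 25 cardiac transcription factors 3 were called higher and 2 lower, again beside 15.3% of all genes. Irx3, a homeobox gene of the conduction system, was at 57.4, 65.1, 53.5 and 38.2 CPM in WT sham and 104, 132, 111 and 114 CPM in KO sham. Irx3 differed by log2 1.10 ± 0.16, adjusted p = 0.000266. Hand2, a factor of ventricle formation, was at 71.8, 84.1, 71.5 and 80.3 CPM in WT sham and 42, 43.8, 37 and 40.4 CPM in KO sham. Hand2 differed by log2 -0.91 ± 0.11, adjusted p = 4.29e-05.

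Immune transcripts are those for which the receptor is best known. Of 20 macrophage markers 3 were called higher and 17 not (median log2 0.251), a share near the 15.3% of all genes tested. The summed level of these markers was 196 to 229 CPM in WT sham and 249 to 274 in KO sham. Of 18 cytokines and chemokines 3 were called higher and 1 lower, and of 15 complement genes 2 higher and 1 lower, beside 15.3% of all genes. The higher cytokine calls numbered 1 without WT sham replicates 1 or 2 or KO sham replicates 1 or 4. Cx3cr1, the fractalkine receptor of resident macrophages, was at 3.29, 3.27, 2.92 and 3 CPM in WT sham and 5.53, 6.1, 5.9 and 7.06 CPM in KO sham. Cx3cr1 differed by log2 0.97 ± 0.21, adjusted p = 0.00441. F13a1, a coagulation factor chain made by them, was at 12.1, 8.73, 8.13 and 11.9 CPM in WT sham and 17.1, 17.9, 16.8 and 16.4 CPM in KO sham. F13a1 differed by log2 0.74 ± 0.18, adjusted p = 0.00863. Csf1, the growth factor of macrophages, was at 13.7, 12.9, 12 and 14.8 CPM in WT sham and 21.2, 20.4, 21.7 and 24.9 CPM in KO sham. Csf1 differed by log2 0.72 ± 0.11, adjusted p = 0.000265. The complement receptor C3ar1 was higher (1.7 ± 0.403 CPM in WT sham and 3.38 ± 0.379 in KO sham; log2 0.99 ± 0.24, adjusted p = 0.0101; adjusted p = 0.0696 without the 2 libraries low in Y-linked reads). The cytokine Tnf had 7, 5, 5 and 5 reads in the WT sham libraries and 4, 2, 9 and 6 in the KO sham libraries, Il6 had 3 at most and Il10 1 at most, and these genes were too low to be tested. Il1b was at 0.6 ± 0.136 CPM in WT sham and 0.428 ± 0.14 in KO sham and was not called (log2 -0.48 ± 0.80, adjusted p = 0.718). Of 11 neutrophil genes none was called by edgeR or DESeq2, and 0 had an unadjusted p under 0.05. Of 8 MHC class II genes none was called by either tool, and 2 had an unadjusted p under 0.05.

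Fibroblast markers were called in both directions, 4 of 20 higher and 2, Tcf21 and Fbln1, lower (median log2 0.0514), beside 15.3% of all genes. The higher calls numbered 2 without KO sham replicate 2 or 3. No fibroblast marker was called lower by edgeR without WT sham replicate 1 or 2 or KO sham replicate 3 or 4, where 9 of the 20 had an unadjusted p under 0.05 and DESeq2 called 7 over all libraries; without the 2 libraries low in Y-linked reads 2 were higher and 0 lower. Pdgfra, the growth factor receptor of cardiac fibroblasts, was at 44.6, 29.5, 39.5 and 39.2 CPM in WT sham and 67.2, 64.6, 59.1 and 61.8 CPM in KO sham. Pdgfra differed by log2 0.73 ± 0.12, adjusted p = 0.000615. Pi16, a marker of quiescent fibroblasts, was at 35.6, 40.6, 31.2 and 46.4 CPM in WT sham and 75.6, 76.3, 77.1 and 64.1 CPM in KO sham. Pi16 differed by log2 0.93 ± 0.21, adjusted p = 0.0077. Of 20 collagens 1 was called, fewer than the 15.3% of all genes. Of 28 matrix enzymes and glycoproteins 7 were called lower and 2 higher, beside the same 15.3%. The lower calls numbered 4 without WT sham replicates 1 or 3 or KO sham replicates 1, 2 or 4, and 3 without the 2 libraries low in Y-linked reads. Thrombospondin 1 (Thbs1), which activates TGF-beta, was at 74.1, 48.6, 61.1 and 58.7 CPM in WT sham and 21.7, 18.6, 26.8 and 25.3 CPM in KO sham. Thbs1 differed by log2 -1.39 ± 0.17, adjusted p = 5.85e-05. The protease Adamts1 was at 111, 85.2, 81.9 and 102 CPM in WT sham and 40.9, 36.9, 46.9 and 43.8 CPM in KO sham. Adamts1 differed by log2 -1.17 ± 0.16, adjusted p = 0.000123. Ltbp4, which binds latent TGF-beta in elastic fibres and was among the most abundant higher genes, was at 817 ± 52.9 CPM in WT sham and 1236 ± 77.2 in KO sham (log2 0.60 ± 0.19, adjusted p = 0.0401); its call ended in all 8 fits without 1 library (adjusted p 0.0581 to 0.0948). Pde4dip, an abundant anchoring protein of phosphodiesterase, lost its call in 7 of those 8 fits (log2 0.37 ± 0.11, adjusted p = 0.0274).

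Genes of large fold change not yet described were mostly of low level. Tnfsf10, the death ligand TRAIL, was at 2.25, 1.48, 1.28 and 1.84 CPM in WT sham and 5.99, 6.62, 5.61 and 7.62 CPM in KO sham. Tnfsf10 was 3.76 times higher in knockout (log2 1.91 ± 0.21, adjusted p = 1.16e-05). Galnt15, a glycosyltransferase of mucin-type chains, was at 5.71, 4.29, 5.21 and 6.48 CPM in WT sham and 21.2, 19.8, 15.1 and 16.6 CPM in KO sham. Galnt15 differed by log2 1.75 ± 0.24, adjusted p = 0.000126. The aryl hydrocarbon receptor Ahr was 2.51 times higher (2.74 ± 0.939 CPM in WT sham and 6.85 ± 1.29 in KO sham; log2 1.33 ± 0.24, adjusted p = 0.00116), the ubiquitin ligase Rnf125 2.62 times (2.12 ± 0.321 CPM in WT sham and 5.57 ± 0.588 in KO sham; log2 1.39 ± 0.23, adjusted p = 0.000475) and the cadherin Cdh23 2.65 times (4.1 ± 1.35 CPM in WT sham and 10.8 ± 1.14 in KO sham; log2 1.41 ± 0.33, adjusted p = 0.00845). Rasgrf2, an exchange factor of Ras, was 2.74 times higher (0.74 ± 0.286 CPM in WT sham and 2.01 ± 0.244 in KO sham; log2 1.45 ± 0.31, adjusted p = 0.00428). The collagen Col28a1 (log2 1.38 ± 0.31, adjusted p = 0.00594), the olfactory receptor Olfr78 (log2 1.38 ± 0.34, adjusted p = 0.0106) and Ubxn10 (log2 1.43 ± 0.36, adjusted p = 0.011) lay between 1.92 and 4.19 CPM in KO sham, and without the 2 libraries low in Y-linked reads their adjusted p was 0.0618, 0.0582 and 0.0502. Hmcn2, a large matrix protein, was at 22.9, 17.8, 17 and 31.1 CPM in WT sham and 70.4, 58, 69.3 and 56.6 CPM in KO sham. Hmcn2 differed by log2 1.52 ± 0.46, adjusted p = 0.0419, a call that ended in 7 of 8 fits without 1 library (adjusted p up to 0.11). In the lower direction Tmem151a, a membrane protein, was at 4.15, 4.13, 3.93 and 2.8 CPM in WT sham and 0.456, 0.735, 0.224 and 0.241 CPM in KO sham. Tmem151a differed by log2 -3.14 ± 0.40, adjusted p = 5.59e-05.

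After infarction far fewer genes were called between the genotypes. The contrast of KO MI and WT MI, which shares no library with the sham contrast, called 2 genes (0.0149%), mt-Nd3 and Mylk3. Genes called higher after sham had a median log2 of 0.0367 after infarction and those called lower -0.0199. The sign was the same after both surgeries for 58.1% of the genes called after sham and for 55% of all genes tested. The difference between the 2 genotype effects was itself tested as an interaction, and 368 genes passed (2.74%), 221 with a positive value (1.65%) and 147 with a negative one (1.1%). Of 136 genes named here with a value, 60 passed it; genes named for a large sham difference are favoured by this test, since it shares the sham libraries. The genotype difference of Slc3a2 was -1.14 after sham and 0.09 after infarction (interaction adjusted p = 2.78e-05). That of Tnni1 was -1.39 and 0.18 (interaction adjusted p = 0.000122), and that of Aplnr 1.27 and -0.1 (0.00397). For Upk3b the difference was -4.03 after sham and 0.75 after infarction (0.00633), and for Nr4a1 -3.84 and -0.43 (0.0226). The difference of mt-Nd3 was 2.47 and 2.51 (0.95), that of Mylk3 -0.4 and -0.54 (0.59) and that of Acta1 -1.44 and -1.01 (0.455). The means of both MI groups lay between the 2 sham means for Slc3a2, Tnni1, Aplnr, Nr4a1, Upk3b, Myl7 and Hba-a1. For Pdk4 (0.86 and 0.32; 0.191), Zbtb16 (2.84 and 1.02; 0.169) and Myl7 (-2.28 and -0.43; 0.191) the interaction was not called, so the larger sham value was not shown to differ.

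**Figure D5:**
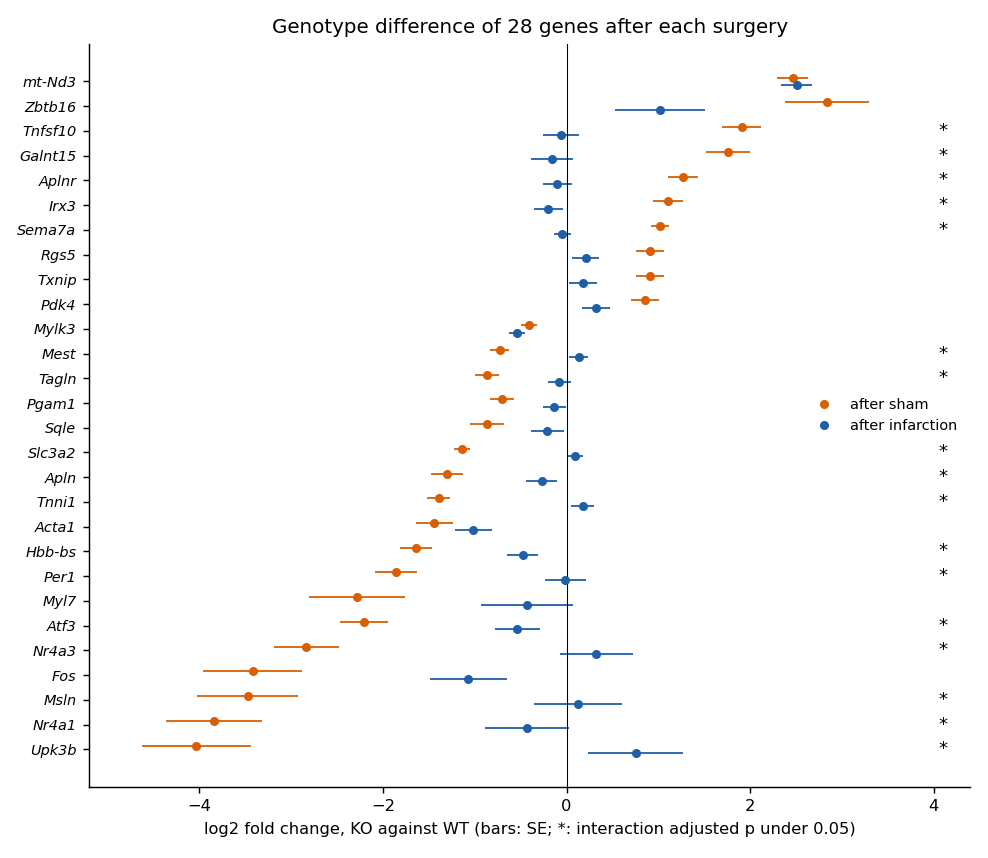
The x axis is the log2 fold change of knockout against wild type for 28 genes, after sham (orange) and after infarction (blue), with bars of 1 SE; a star marks an interaction adjusted p under 0.05. The points coincide for mt-Nd3 and lie near 0 after infarction for genes such as Slc3a2, Sema7a and Per1.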

How the data were processed

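Polyadenylated RNA of 16 ventricle libraries was sequenced. The authors deposited raw counts per Ensembl gene; the submitters' processing notes name bcl2fastq 2.17, cutadapt 3.4, HISAT2 2.2.1, HTSeq 0.13.5, DESeq2 and the build GRCm39, while the annotation release and strand setting are not given in the sources used here. The 5 HTSeq summary lines were left out of totals and tests. Symbols, lengths and GC content came from a GRCm38 annotation matched by gene ID. The counts were fitted with edgeR 4.0.16 in R 4.3.3 (TMM scaling, filterByExpr, robust quasi-likelihood, all 4 groups of 4), and p-values were adjusted by Benjamini-Hochberg over 13412 genes, with calls under 0.05. DESeq2 1.42.0 and limma 3.58.1 voom were alternatives, as were other scalings, filters, covariates and each library left out. log2 values of libraries used a prior count of 2. Counts of 13207 genes were simulated, with 100 changed 2-fold and 99 changed 1.5-fold in KO sham and the same spread in all groups. There 80% of 2-fold and 61.6% of 1.5-fold changes were recovered, and 8.44% of calls were unchanged genes. The real data have many more called genes and an unequal spread between groups, so these rates need not hold for them. Named genes were, per direction, the 12 of largest fold change without overlap between the groups and averaging 2 CPM or more in one of them, 6 of lowest p, 6 of highest level, the leading called genes of each list, and preset markers. The compared groups, gene lists and members were chosen with earlier results of these data known. Some genes that this rule names are not reported here.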

Additional observations from a re-analysis of the deposited data

Results flagged for a closer look

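Single libraries stood apart from the other 3 of their group in 21 of 278 sets of 4 values examined (7.55%), 14 of them in WT sham and 7 in KO sham, by a gap rule that chance meets in about 1 of 20 sets. WT sham replicate 1 was the highest library of its group for Msln (43.9 CPM), C3 (125 CPM), Atf3 (23.8 CPM) and Rnf125 (2.59 CPM) and the lowest for Tnni1 (858 CPM). WT sham replicate 2 stood apart for Zbtb16 (2.18 CPM), Dlk1 (32 CPM), Ttr (10.1 CPM), Pgam1 (70.3 CPM), Klf13 (6.39 CPM) and the share of mitochondrially encoded reads (13.4%). WT sham replicate 3 did so for Nppb (229 CPM) and Bhlhe41 (10 CPM), and WT sham replicate 4 for Tmem151a (2.8 CPM). KO sham replicate 4 stood apart for Pdk4 (351 CPM), Cpt1a (143 CPM), Dmd (121 CPM), Pi16 (64.1 CPM) and Upk1b (0.16 CPM), KO sham replicate 1 for Uchl1 (32.9 CPM) and KO sham replicate 2 for the sum of Y-linked genes (2.13 CPM).

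The genotype difference changed between sham surgery and infarction for 60 of 136 named genes by the interaction test of edgeR. Most of these genes were named for their sham difference, and the test shares the sham libraries. The values below are the log2 difference after infarction minus that after sham. Mesothelial, immediate early and other genes lower in KO sham had the highest values: Lrrn4 4.92, Upk3b 4.79, Muc16 4.6, C3 4.26, Upk1b 4.24, Tmem151a 3.86, Msln 3.6, Nr4a1 3.41, Nr4a3 3.16, Krt7 2.54, Myh8 2.39 and Mt2 2.07. Values between 1 and 2 belonged to Per1 1.85, Arid5a 1.73, Atf3 1.67, Tnni1 1.57, Hbb-bt 1.57, Hba-a1 1.48, Dlk1 1.42, Maff 1.31, Slc3a2 1.23, Olfml2b 1.17, Hbb-bs 1.16, Slc16a3 1.15, Thbs1 1.15, Alas2 1.11, Apln 1.03, Psat1 1.02 and Igf2bp3 1.02. Smaller positive values belonged to Adamts1 0.992, Mt1 0.968, Wt1 0.961, Spon2 0.912, Mest 0.86, Bhlhe40 0.85, Hand2 0.791, Tagln 0.784, Pde4b 0.778, Uchl1 0.735, Plagl1 0.692 and Srebf2 0.656. Genes higher in KO sham had negative values: Tnfsf10 -1.97, Olfr78 -1.97, Galnt15 -1.91, Rasgrf2 -1.75, Col28a1 -1.7, Aplnr -1.37, Irx3 -1.3, Ahr -1.24, Fitm2 -1.15, Sema7a -1.06, Dusp7 -1.02, Hcn2 -0.943, mt-Nd5 -0.859, Pcsk6 -0.777, Csf1 -0.762, Dmd -0.732, Ajuba -0.641, Gpam -0.621 and Sesn1 -0.506.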

How the results depend on the processing

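The fits that left out 1 library called 1298 to 2077 genes in KO sham against WT sham, 578 to 995 higher and 651 to 1082 lower, and 178 to 362 genes for the difference between the genotype effects. The count of 2057 fell by more than 1.5 times without WT sham replicate 3 (1351), KO sham replicate 1 (1329), KO sham replicate 2 (1322) or KO sham replicate 4 (1298), and 41.8% of calls were higher without WT sham replicate 2. limma voom with sample weights called 3901 genes, 1953 higher and 1948 lower, and 1524 for the difference between effects, for which DESeq2 called 632. The 8 sham libraries alone gave 3211 calls, 1679 higher and 1532 lower. Without the 2 sham libraries low in Y-linked reads and KO MI replicate 1, also low in them, there were 1237, 572 higher and 665 lower. That fit called 217 genes for the difference between effects. The atrial index as covariate left 842, 458 and 384, and 112. The mesothelial index left 1 gene, 1 higher (mt-Nd3) and 0 lower, and 0; the red cell index left 0, 0 and 0, and 0. For each called gene the standard error with an index was divided by that without one. The median of these ratios was 1.56, 2.06 and 3.09 for the atrial, mesothelial and red cell index. The median of the same ratio for log2 was 1.12, 0.714 and 0.915. Signs turned with the red cell index for Ide (-0.0157), mt-Nd5 (-0.0498), Lpl (-0.0424), Birc5 (0.136) and Rplp1 (0.0415), and with the mesothelial index for Ubxn10 (-0.0892), Plin1 (1.70), Lrrn4 (0.256), Muc16 (0.701), C3 (0.632), Upk1b (0.322) and Krt14 (1.67); the cause was not tested. Of 124 called genes named in the text, 96 kept their call under every setting other than the 3 indices. The 2 settings chosen after seeing the data are among the 24.

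Replicate numbers are shared between the groups, but same-numbered sham libraries did not deviate together (correlations -0.0182, 0.00268, 0.0822 and 0.011), so the numbers were not taken as pairs. With the replicate number as a block 2202 genes were called, 1159 higher and 1043 lower.

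Depth limited the low genes: 3 counts equal 0.194 to 0.28 CPM, and Chrna7 itself was below what could be tested.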

Other observations

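Genes beside Chrna7 were looked at after their values had been seen. Of the 20 tested genes nearest to it in RefSeq order (GRCm38.p6), 10 on each side, 5 were called, against 166 of 1041 genes tested on chromosome 7 (15.9%). Gabrg3, a GABA receptor subunit, was at a log2 of 2.61 (adjusted p = 0.000464 by edgeR), Klf13 at 0.70, Pcsk6 at 0.68, Tjp1 at 0.34 and Tm2d3 at -0.48. After infarction the genotype difference was 1.99 for Gabrg3, 0.098 for Klf13, -0.094 for Pcsk6, -0.012 for Tjp1 and -0.099 for Tm2d3, and none of these was called. Gabrg3 averaged 0.233 CPM in WT sham, within the 0.194 to 0.28 CPM that equal 3 counts, and 1.51 CPM in KO sham. The call of Tjp1 ended in 7 of 8 fits without 1 library (adjusted p up to 0.127) and that of Klf13 in 3 (up to 0.0687). The source of the knockout allele and the strain on either side of it are not stated in the labels used here, and the part of flanking sequence was not tested.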
